A study of Mus musculus with 8 samples.

Results

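Genes that are recurrently mutated in human myelodysplastic syndrome (MDS), a clonal disorder of blood formation, were described here in haematopoietic stem cells of mouse fetal liver. The list held 32 mouse genes chosen by their role in the human disease, with earlier results of these data known. Of these, 30 had at least 1 probe set whose annotation gave a single gene symbol, out of 18193 such genes on the array, and they were covered by 88 of 45037 probe sets. Signals of Zrsr2 and Setbp1 were not analysed here. Where a gene had several probe sets, the one that was brightest on average over the 8 arrays stood for it.

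The comparison was of Crebbp+/- embryos, which carry 1 mutant copy of Crebbp, with wild-type embryos, both on a C57BL/6 background. The product of Crebbp is CBP, a coactivator that acetylates histones, and the study's title ties Crebbp+/- mice to MDS and to defects of DNA repair. Cells were sorted as Sca-1+, Lin-, AA4.1+ and strongly c-Kit+ fetal liver stem cells, from 15 combined embryos, at an age labelled as 14.5 days post coitum in one field and as 14 in another. Each genotype had 2 numbered samples, and each sample was measured on 2 replicate arrays. The labels do not say whether the arrays came from separate cells or whether different litters gave the numbered samples. The arrays of a sample were therefore averaged (n = 2 samples per genotype), and p-values measure only the spread between these preparations. The part of Crebbp that the mutant allele removes is not given in the sources used here. Since preparations were pools of cells, fewer cells of a type and less RNA per cell cannot be told apart.

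As background, the genes mutated in MDS fall into a few molecular machines. Some set or read DNA methylation, some belong to Polycomb complexes and other chromatin regulators, some recognise the 3′ splice site or run the spliceosome, some form the cohesin ring that holds sister chromatids and shapes chromatin loops, and some transmit RAS signals from cytokine receptors. Blood stem cells depend on many of them, and in patients the mutations arise in such cells and often combine across classes.

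Markers of the sorted cells were present in all samples. All 9 annotated genes of a list of stem and progenitor markers lay above the filter of 2.72, the median log2 signal of all probe sets, among them Kit and Cd93, which encodes the AA4.1 antigen. Their summed linear signal was 22986 and 22430 in the Crebbp+/- samples, against 24690 and 22031 in the wild-type samples. Within this list Mecom and Hlf differed by -0.38 (SE 0.14) and -0.54 (SE 0.20) on the log2 scale, Crebbp+/- minus wild type. For both, all 4 Crebbp+/- arrays lay below all 4 wild-type arrays, as for 3.74% of all tested probe sets, with a limma adjusted p of 0.991. The other markers of the list differed by -0.12 to 0.20. Transcripts of hepatocytes, the parenchymal cells of the organ, summed to 314 and 463 in the Crebbp+/- samples, against 52.6 and 885 in wild-type samples 1 and 2. Lists of other cells had 3 of 8 macrophage genes, 4 of 6 megakaryocyte genes, 3 of 6 B and T cell genes, 2 of 6 endothelial genes and 1 of 5 erythroid genes above the filter, with Hba-a1, Cd3e, Cd79a, Cdh5, Kdr and Marco below it. The erythroid gene, Slc4a1, passed through Crebbp+/- alone, with a mean of 3.19, against 2.49 in wild type. By its means, the megakaryocyte gene Pf4 passed through wild type alone (2.66 in Crebbp+/-, 2.83 in wild type). The megakaryocyte genes summed to 76.0 and 96.1 in the Crebbp+/- samples, against 162 and 170 in wild type. Of these, Gp9 and Vwf differed by -1.21 (SE 0.31) and -1.64 (SE 0.32), each with a limma adjusted p of 0.991. The Crebbp+/- samples of Vwf read 2.77 and 2.76, close to the filter of 2.72, against 4.03 and 4.79 in wild type. The size of the Vwf difference is therefore not read as a fold. The other genes of that list differed by -0.17 to -0.02. The part of megakaryocyte genes in the genotype differences below was not tested. For the macrophage genes, mainly Csf1r, the sums were 708 and 2013 in Crebbp+/-, against 992 and 1833 in wild type. The B and T cell sums were 544 and 587 in Crebbp+/-, against 439 and 611 in wild type, the endothelial sums 642 and 605, against 707 and 535, and the erythroid sums 28.9 and 31.2, against 25.8 and 26.7. The targeted gene itself had log2 signals of 11.95 and 11.66 at its brightest probe set in the Crebbp+/- samples, against 12.07 and 11.41 in wild type. That probe set differed by 0.07 (SE 0.26) and a second by 0.01 (SE 0.49). The 2 dimmer Crebbp probe sets differed by -0.42 (SE 0.29) and -0.35 (SE 0.24), each with an adjusted p of 0.991. At each, both Crebbp+/- samples lay below both wild-type samples, as at 15.4% of all tested probe sets. None of the Crebbp values checks the genotype, since a probe set outside the removed part would not show it.

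CBP is recruited to promoters by CREB, a transcription factor that binds the cyclic AMP response element TGACGTCA and its half-site TGACG. RefSeq windows of the GRCm38.p6 build were at hand for 27 of the 32 genes, and the 250 bases before the start of the first listed transcript were searched on both strands. The whole element was present in 1 of 27 (3.7%), Ptpn11, against 1.62% of 27025 genes, and the half-site in 4 of 27, against 17.9% of all genes. Each whole element also counts as a half-site. The 4 matching stretches are printed because CBP is the protein encoded by the mutated gene. They are written 5′ to 3′ on the strand of the gene, with the matched letters in capitals.
Ptpn11, minus strand, chr5:121191427-121191494: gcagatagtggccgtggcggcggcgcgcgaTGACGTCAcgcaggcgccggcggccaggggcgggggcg
Etv6, plus strand, chr6:134035617-134035681: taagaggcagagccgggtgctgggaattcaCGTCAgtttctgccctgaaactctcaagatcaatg
Prpf8, plus strand, chr11:75486699-75486763: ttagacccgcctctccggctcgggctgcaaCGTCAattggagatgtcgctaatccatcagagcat
Suz12, plus strand, chr11:79992956-79993020: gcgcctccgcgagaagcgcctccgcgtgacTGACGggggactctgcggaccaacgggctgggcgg

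Signals of these 4 genes differed between genotypes by 0.16 to 0.29 on the log2 scale. Among the 21 other tested genes with a window, differences ran from -0.14 to 0.48. Of these 21, Jarid2 and U2af1 held the half-site before a second listed start, 211 and 11 bases upstream, and differed by -0.07 and 0.10. The ranges overlap, and no test was made on groups formed by these letters. A match is a run of letters and not a bound site.

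No gene of the list differed between genotypes past the test. Of the 30 genes, 29 had a mean log2 signal above 2.72 and were tested. Bcorl1, which encodes a corepressor related to Bcor, was the exception. Its 4 Crebbp+/- arrays read 2.96, 2.45, 2.44 and 2.96, against 2.44, 2.44, 2.44 and 2.79 in wild type, and these values overlapped. Differences are given as Crebbp+/- minus wild type on the log2 scale, with the standard error (SE) of limma, a linear model across all probe sets with a moderated variance.

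The 29 differences lay between -0.14 for Kmt2a and 0.48 for Bcor, a fold of 1.40 for Bcor. Their median was 0.10, beside a median of 0.02 over all 22518 tested probe sets and 0.04 over the brightest probe sets of 10600 genes. After Benjamini-Hochberg adjustment limma called 0 of the 29, as it called 0% of all tested probe sets, with adjusted p between 0.991 and 0.999 for the 29. At an unadjusted p under 0.05 the count was also 0 of 29, beside 4.84% of all tested probe sets and 2.67% of the brightest ones. Of the 29 differences 17 were positive, or 58.6%, beside 53% of all probe sets and 56.9% of the brightest ones, which are the closer match to this list. The 2 sample means of one genotype did not overlap those of the other for 7 of 29 genes (24.1%), beside 31% of all probe sets and 28.1% of the brightest. Crebbp+/- was the higher one for 6 of them (20.7%), beside 15.6% of all and 17.1% of the brightest, and the lower one for 1 (3.45%), beside 15.4% and 11%.

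The intervals bound what could have been missed at the brightest probe set of each gene. For 24 of 29 genes the 95% limma interval lay within a log2 difference of -1 to 1, a fold of 2 in either direction. The 5 genes whose interval reached past one of these bounds were Kmt2a, Bcor, U2af1, Cbl and Etv6. For Jarid2, Srsf2, Stag1, Npm1 and Cux1 the interval lay within -0.5 to 0.5. Each of them also had a dimmer probe set whose interval reached past these bounds. Such intervals ran from -1.70 to -0.20 for Stag1, -2.03 to 0.48 for Cux1 and -0.57 to 1.47 for Jarid2. For Srsf2 and Npm1 they ran from -0.85 to 1.18 and from -0.47 to 0.83. These intervals are not adjusted for the number of genes.

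**Figure D1:**
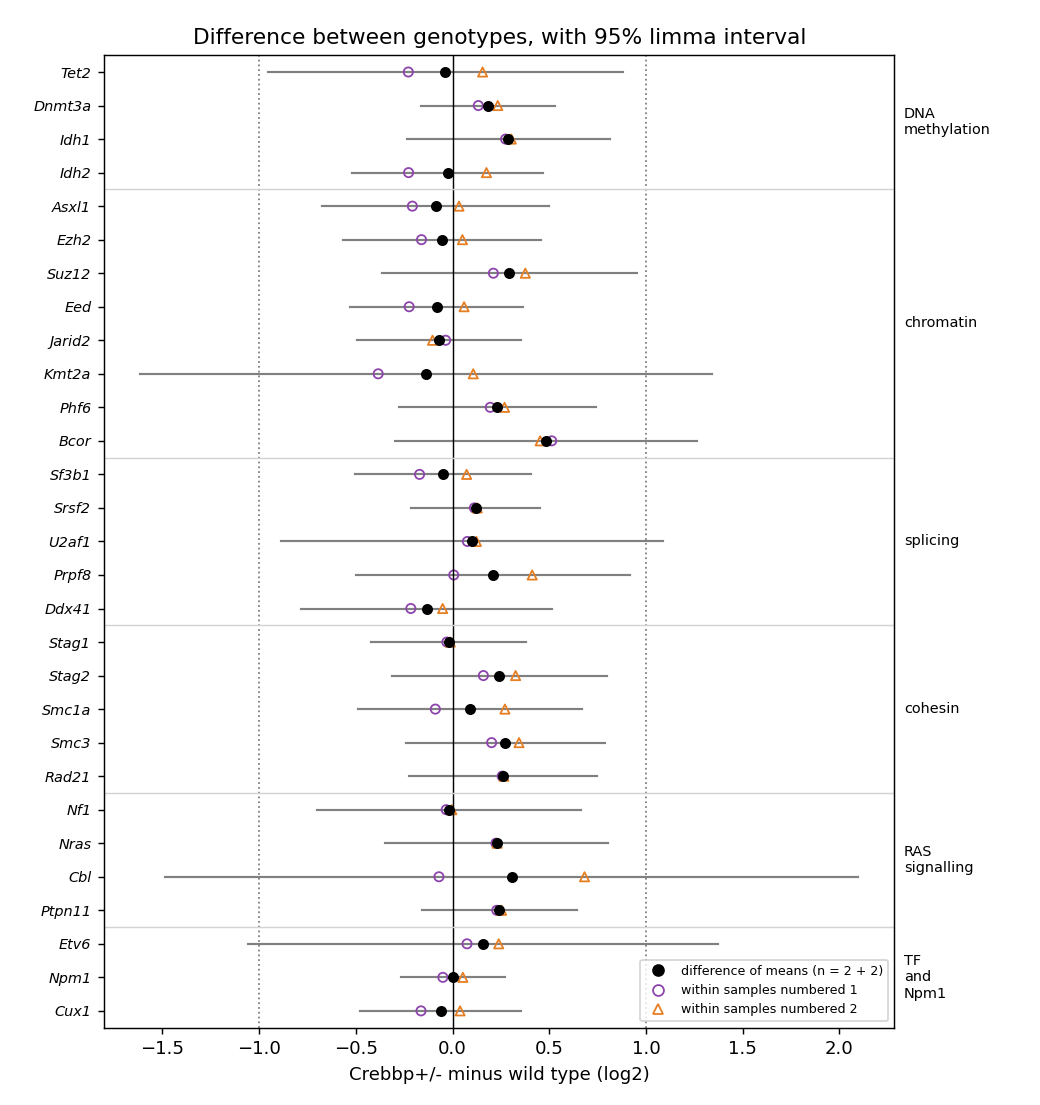
Difference between Crebbp+/- and wild type (log2, x axis) for the 29 tested genes, ordered by class. Black points are differences of genotype means with their 95% limma interval, open circles and triangles are the differences within the samples numbered 1 and 2, and dotted lines mark -1 and 1. All intervals include 0, and those of Kmt2a, Cbl and Etv6 are the widest.

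Genes of DNA methylation were expressed in both genotypes and none passed the test. Dnmt3a encodes a de novo DNA methyltransferase. It had log2 signals of 12.46 and 12.27 in Crebbp+/- sample 1 and 12.33 and 12.19 in Crebbp+/- sample 2, against 12.27 and 12.19 in wild-type sample 1 and 12.12 and 11.93 in wild-type sample 2. Both Crebbp+/- samples averaged above both wild-type samples, although single arrays overlapped, and the difference was 0.18 (SE 0.13, 95% interval -0.16 to 0.53, limma adjusted p = 0.991). Its 4 dimmer probe sets differed by -0.34 to 0.13, and 3 of them were negative. Idh1 encodes the cytosolic isocitrate dehydrogenase, whose mutant form makes a metabolite that inhibits TET enzymes. Its signals were 11.59, 11.76, 11.29 and 11.41 on the Crebbp+/- arrays, against 11.28, 11.51, 10.92 and 11.17 in wild type, with sample 1 first. Sample 2 was lower than sample 1 in both genotypes, and the genotypes differed by 0.29 (SE 0.20, interval -0.24 to 0.81, adjusted p = 0.991), by 0.27 for number 1 and 0.30 for number 2. The second Idh1 probe set differed by 0.33. Tet2, an enzyme that oxidises methylcytosine, differed by -0.04 (SE 0.35), with opposite signs in the 2 numbers (-0.23 and 0.16). Idh2, the mitochondrial enzyme, differed by -0.03 (SE 0.19), also with opposite signs (-0.23 and 0.18).

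Chromatin regulators had the widest span of differences, from -0.14 to 0.48, with 3 of 8 tested genes positive and a median of -0.06. Bcor encodes a corepressor of a variant Polycomb complex. On the Crebbp+/- arrays it read 9.66 and 9.63 in sample 1 and 9.05 and 9.16 in sample 2, against 8.94 and 9.34 in wild-type sample 1 and 8.79 and 8.51 in wild-type sample 2. Within each number both Crebbp+/- arrays lay above both wild-type arrays, and across numbers the genotypes overlapped. The difference of 0.48 (SE 0.30, interval -0.30 to 1.26, adjusted p = 0.991) was 0.51 and 0.45 within the numbers 1 and 2. Its other probe sets, which read lower, differed by -0.24 and 0.08.

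Phf6, an X-linked gene for a zinc finger protein of the nucleolus, and Suz12, a core subunit of Polycomb repressive complex 2, were also higher on average in Crebbp+/- without passing the test. Phf6 read 8.93, 9.26, 9.28 and 9.17 on the Crebbp+/- arrays, against 8.66, 9.14, 9.21 and 8.71 in wild type. It differed by 0.23 (SE 0.19, interval -0.28 to 0.74), and its dimmer probe sets by -0.29 and -0.10. Suz12 read 11.81, 11.63, 11.25 and 11.42 in Crebbp+/-, against 11.48, 11.53, 10.86 and 11.06 in wild type. Sample 2 was the lower one in each genotype, and the difference was 0.29 (SE 0.25, interval -0.37 to 0.95). All 6 Suz12 probe sets had positive differences, from 0.14 to 0.79. The other core subunits of the same complex were near 0, with -0.05 (SE 0.20) for Ezh2, its methyltransferase, and -0.08 (SE 0.17) for Eed, its reader of methylated histones. Jarid2, an accessory subunit, differed by -0.07 (SE 0.16), with 0.37 and 0.45 at its dimmer probe sets. Asxl1, a partner of the deubiquitinase Bap1, differed by -0.09 (SE 0.23). Kmt2a, a histone methyltransferase that maintains Hox expression, differed by -0.14 (SE 0.57) at one probe set and by 0.37 (SE 0.38) at the other.

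**Figure D2:**
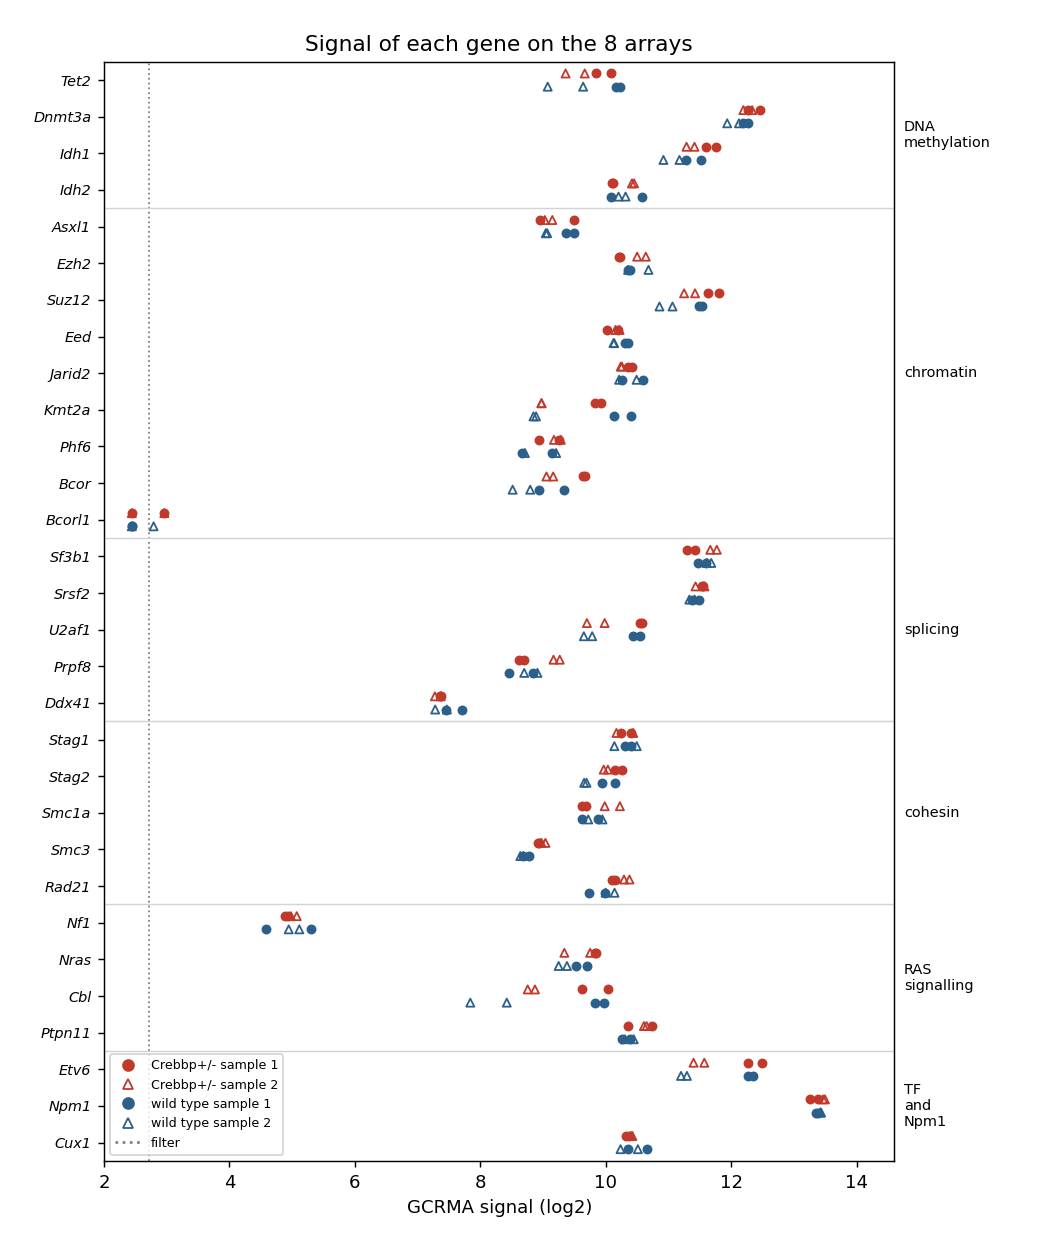
GCRMA log2 signal (x axis) of the 30 annotated genes on the 8 arrays, with Crebbp+/- in red above wild type in blue, sample 1 as filled circles and sample 2 as open triangles. The dotted line is the filter of 2.72, around which the Bcorl1 arrays lie, and sample 2 lies below sample 1 in both genotypes for Kmt2a, U2af1, Cbl and Etv6. Signals of different probe sets do not compare amounts between genes.

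Splicing factors differed little, with 5 tested genes between -0.13 and 0.21 and a median of 0.10. Srsf2 encodes a serine- and arginine-rich protein that binds exonic enhancers. Its arrays read 11.55, 11.53, 11.43 and 11.57 in Crebbp+/-, against 11.37, 11.48, 11.42 and 11.33 in wild type. The difference of 0.12 (SE 0.13, interval -0.21 to 0.45, adjusted p = 0.991) was 0.11 and 0.13 within the 2 numbers, and all 4 of its probe sets were positive. Prpf8, a core protein of the catalytic spliceosome, read 8.70, 8.61, 9.17 and 9.27 in Crebbp+/-, against 8.84, 8.46, 8.70 and 8.91 in wild type. Crebbp+/- sample 2 stood above the other samples, so that its difference of 0.21 (SE 0.27) was 0.01 within the numbers 1 and 0.41 within the numbers 2. Sf3b1, which contacts the branch point and is a frequent target of mutation in MDS with ring sideroblasts, read 11.43, 11.29, 11.66 and 11.77 in Crebbp+/-, against 11.46, 11.60, 11.68 and 11.61 in wild type. These values overlapped and differed by -0.05 (SE 0.17, interval -0.50 to 0.40), with -0.12, 0.04 and -0.40 at its other probe sets. U2af1, which recognises the end of the intron, differed by 0.10 (SE 0.38), and Ddx41, an RNA helicase, by -0.13 (SE 0.25). Ddx41 was the only tested gene of the 29 with both Crebbp+/- sample means below both wild-type means.

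Cohesin genes had a median difference of 0.24 over 5 tested genes, with 4 positive, and none passed the test. Smc3 encodes a core subunit of the ring. It read 8.93 and 8.93 in Crebbp+/- sample 1 and 8.97 and 9.04 in sample 2, against 8.69 and 8.77 in wild-type sample 1 and 8.64 and 8.68 in wild-type sample 2. All 4 Crebbp+/- arrays lay above all 4 wild-type arrays, which held for 1 of 29 genes (3.45%), beside 6.98% of all tested probe sets in either direction and 3.24% higher in Crebbp+/- (5.67% and 3.68% of the brightest ones). The difference was 0.27 (SE 0.20, interval -0.24 to 0.79, adjusted p = 0.991), and 0.06 at the dimmer Smc3 probe set. Rad21, the subunit that closes the ring, read 10.09, 10.14, 10.29 and 10.38 in Crebbp+/-, against 9.73, 9.99, 10.14 and 10.00 in wild type. Its arrays overlapped narrowly, and the difference was 0.26 (SE 0.19, interval -0.23 to 0.75), with -0.18 (SE 0.36) at a second probe set. Stag2, an X-linked subunit often inactivated in MDS, differed by 0.24 (SE 0.21) and 0.35 (SE 0.37) at its 2 probe sets, and Smc1a, also X-linked, by 0.09 (SE 0.22).

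Stag1, the paralogue of Stag2, gave the least uniform picture. Its brightest probe set read 10.40, 10.24, 10.44 and 10.17 in Crebbp+/-, against 10.39, 10.31, 10.14 and 10.49 in wild type, a difference of -0.02 (SE 0.15, interval -0.42 to 0.38). A dim Stag1 probe set had sample means of 4.73 and 4.42 in Crebbp+/-, against 5.41 and 5.64 in wild type. It differed by -0.95 (SE 0.29, limma unadjusted p = 0.023, adjusted p = 0.991). This was the 1 of 81 tested probe sets of the list with an unadjusted p under 0.05 (1.23%), beside 4.84% of all tested probe sets. Another differed by 0.74 (SE 0.69), with sample means of 8.54 and 7.20 in Crebbp+/-, against 7.87 and 6.39 in wild type. What these probe sets measure of the Stag1 transcripts is not in the files. Of 24 genes with more than 1 tested probe set, 14 had differences of both signs. The 9 genes with positive differences at every tested probe set were Cbl, Idh1, Npm1, Nras, Ptpn11, Smc3, Srsf2, Stag2 and Suz12, and Tet2 was the 1 gene with negative ones (-0.04 and -0.53). Shares over all genes were not computed for these counts of genes by sign. Over the 81 probe sets 51 differences were positive and 30 negative, beside 53% positive over all tested probe sets.

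**Figure D3:**
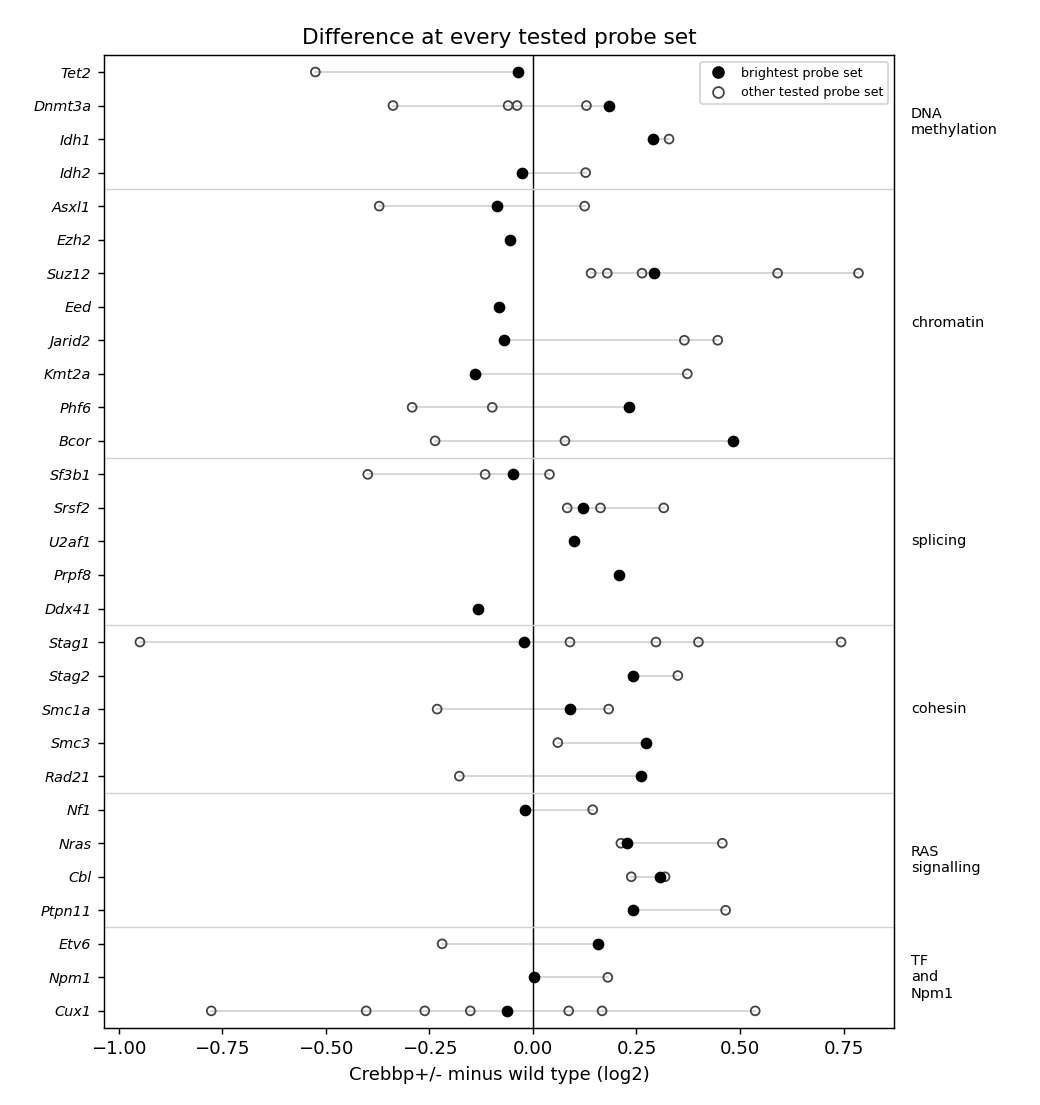
Difference between Crebbp+/- and wild type (log2, x axis) at each of the 81 tested probe sets, with the brightest probe set of a gene filled and the others open. Probe sets of Stag1 and Cux1 span more than 1 log2 unit across 0, and the 6 Suz12 probe sets all lie above 0.

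Genes of RAS signalling had a median difference of 0.23 over 4 tested genes, 3 of them positive. Ptpn11, which encodes the phosphatase SHP2 downstream of cytokine receptors, read 10.74, 10.35, 10.65 and 10.61 in Crebbp+/-, against 10.25, 10.38, 10.44 and 10.30 in wild type. One Crebbp+/- array fell among the wild-type values, and the difference was 0.24 (SE 0.15, interval -0.16 to 0.64, adjusted p = 0.991), with 0.23 and 0.25 within the 2 numbers. Nras, a small GTPase, read 9.85, 9.83, 9.75 and 9.34 in Crebbp+/-, against 9.53, 9.70, 9.25 and 9.38 in wild type. It differed by 0.23 (SE 0.22, interval -0.35 to 0.80), and its 3 probe sets were all positive. One of them had its 4 Crebbp+/- arrays above the wild-type arrays, with a difference of 0.46 (SE 0.22, adjusted p = 0.991). Arrays separated at 2 of the 81 tested probe sets of the list (2.47%), beside 6.98% of all tested probe sets and 3.24% higher in Crebbp+/-. Cbl, a ubiquitin ligase that turns off activated receptors, differed by 0.31 with an SE of 0.69, and Nf1, which switches RAS off, by -0.02 (SE 0.26).

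Etv6 and Cux1, both transcription factors, and Npm1, a nucleolar chaperone, differed by 0.16, -0.06 and 0.00. Npm1 was measured with the smallest error of the list. It read 13.26, 13.38, 13.49 and 13.46 in Crebbp+/-, against 13.36, 13.39, 13.42 and 13.43 in wild type, and the interval of its difference ran from -0.27 to 0.27 (SE 0.10). Cux1 read 10.37, 10.32, 10.42 and 10.40 in Crebbp+/-, against 10.36, 10.65, 10.51 and 10.23 in wild type, with an SE of 0.16. Its other probe sets disagreed, from -0.78 (SE 0.48) to 0.54 (SE 0.32). Etv6 read 12.50 and 12.27 in Crebbp+/- sample 1 and 11.57 and 11.40 in sample 2, against 12.27 and 12.34 in wild-type sample 1 and 11.20 and 11.29 in wild-type sample 2. The 2 numbered samples stood apart in each genotype, and the SE of its difference was 0.47. A second Etv6 probe set differed by -0.22 (SE 0.26).

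Within the sample numbers, 18 of 29 genes (62.1%) had differences of the same sign in number 1 and number 2, beside 62.4% of all tested probe sets and 61.9% of the brightest ones. They were higher in Crebbp+/- in both numbers for 14 genes (48.3%), beside 33.9% of all and 37.2% of the brightest probe sets, and lower in both for 4 genes (13.8%), beside 28.5% and 24.7%. The 4 were Jarid2, Ddx41, Stag1 and Nf1. The median difference over the 29 genes was -0.03 for number 1 and 0.18 for number 2. Over all tested probe sets these medians were 0.005 and 0.03, and over the brightest ones 0.02 and 0.06.

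Numbered samples of a genotype often differed more than the genotypes did, in this list as across the array. A difference of 2 single samples varies more than a difference of means of 2 samples each, even where nothing differs. In 16 of 29 genes (55.2%) the size of the sample 2 minus sample 1 difference exceeded that of the genotype difference in both genotypes, beside 47.5% of all tested and 51.1% of the brightest probe sets. The direction was shared by the genotypes in 25 of 29 genes (86.2%), beside 71.6% of all tested and 73.1% of the brightest probe sets. In 6 genes (20.7%) sample 2 was lower than sample 1 by over 0.4 in both genotypes, beside 12.6% of all and 10.4% of the brightest probe sets, and 0 were higher by as much in both, beside 8.54% and 9.74%. This bound of 0.4 was chosen after the values were seen.

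The 6 were Tet2, Kmt2a, Bcor, U2af1, Cbl and Etv6. Cbl was lower in sample 2 by a log2 difference of -1.02 in Crebbp+/- and -1.77 in wild type, and Kmt2a by -0.90 and -1.39. For Etv6 the values were -0.90 and -1.06, for U2af1 -0.73 and -0.77, for Tet2 -0.45 and -0.83, and for Bcor -0.54 and -0.48. Arrays of one sample also differed, and the largest gap between 2 arrays of a sample had a median of 0.28 over the 29 genes and reached 0.71 for Nf1. The median size of the sample difference was 0.21 in Crebbp+/- and 0.20 in wild type. Both were smaller than the 0.30 and 0.35 over all tested probe sets and the 0.29 and 0.32 over the brightest ones. The sample difference of a gene exceeded its own largest array gap in both genotypes for 7 genes, Idh1, Suz12, Kmt2a, Bcor, U2af1, Cbl and Etv6, and did not for Tet2. The share of all tested probe sets for which this held was not computed, so the count is not read as a trait of the list.

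A measure of RNA quality moved with the sample number and, within each number, with genotype. The 5′ minus 3′ signal of the Gapdh control, which falls with degradation, was -0.89 and -1.88 in Crebbp+/- samples 1 and 2, against -1.22 and -2.59 in wild-type samples 1 and 2. It was lower in sample 2 of each genotype and higher in Crebbp+/- within each number. With this measure as a covariate 5 of the 29 genes had an unadjusted p under 0.05, beside 13% of all tested probe sets, and none passed the test. They were Tet2 (-0.33), Kmt2a (-0.65), Rad21 (0.35), Ptpn11 (0.27) and Etv6 (-0.27, the opposite sign to its difference without the covariate), with limma adjusted p between 0.231 for Kmt2a and 0.358 for Tet2. The sum of hepatocyte transcripts, given above, was also higher in sample 2 of each genotype. The part of hepatocyte RNA in the sample and genotype differences was not tested, and that of RNA quality was examined by this covariate alone.

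**Figure D4:**
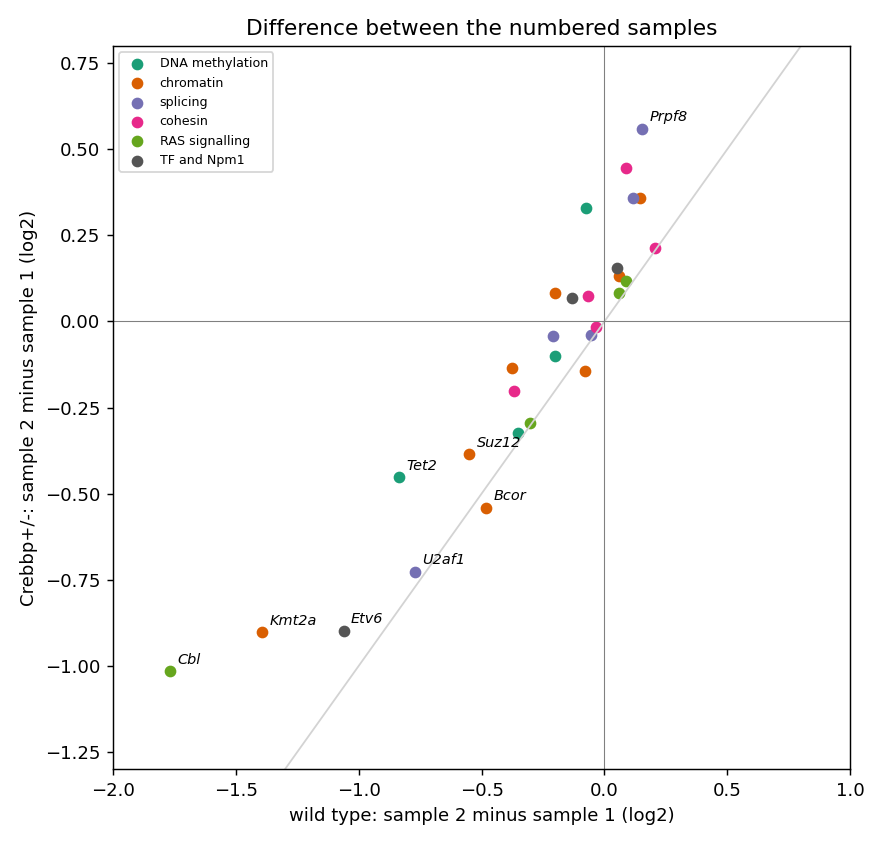
Sample 2 minus sample 1 (log2) in Crebbp+/- (y axis) and in wild type (x axis) for the 29 tested genes, coloured by class, with the diagonal in grey. Names are given where either value exceeds 0.5 in size, and Cbl, Kmt2a and Etv6 lie farthest below 0 in both genotypes.

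Other genes of the same machines gave no call either. Of 11 tested partners in DNA methylation and isocitrate metabolism, 26 partners of Polycomb and KMT2 complexes, 21 partners in recognition of the 3′ splice site, 14 regulators of cohesin and 18 partners in RAS signalling, limma called 0 in either direction. Their median differences were 0.08, 0.07, 0.02, 0.02 and 0.04, near the 0.04 over the brightest probe sets of all genes. At an unadjusted p under 0.05 there was 1 gene higher, Rras2, and 1 lower, Rec8, beside 1.23% and 3.61% of all tested and 1.39% and 1.28% of the brightest probe sets in those directions. Rras2, a RAS-related GTPase, had sample means of 8.93 and 8.37 in Crebbp+/-, against 7.92 and 7.55 in wild type, a difference of 0.92 (SE 0.30, adjusted p = 0.991). Rec8, a meiotic cohesin subunit, passed the filter of 2.72 through wild type alone. Its arrays read 2.53, 2.51, 2.44 and 2.58 in Crebbp+/-, against 3.61, 2.67, 4.28 and 2.57 in wild type. With 1 array of each wild-type sample below the filter as well, its difference of -0.77 is not read as a result. Pds5a, which regulates cohesin on chromatin, had 9.51 and 9.90 in Crebbp+/-, against 10.09 and 10.56 in wild type (difference -0.62, SE 0.26, adjusted p = 0.991). Bmi1, a Polycomb protein of stem cell self-renewal, differed by 0.36 (SE 0.17), and Ash2l, a KMT2 complex subunit, by 0.32 (SE 0.20). Sos2, an activator of RAS, differed by 0.42 (SE 0.24). In the remaining lists the lowest p belonged to Idh3b at -0.32 (SE 0.27), Mbd4 at 0.28 (SE 0.25), Prpf40b at -0.27 (SE 0.26) and Snrnp200 at 0.14 (SE 0.17).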

How the data were processed

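RNA of sorted fetal liver stem cells, 12 ng per preparation, was amplified and hybridised to Affymetrix mouse arrays, per the labels' protocols. The deposited values were made with GCRMA, per the submitters' processing notes, with a version not given in the sources used here, and their range is that of log2 signals. The small number of arrays limits the precision. After removal of 64 control probe sets, genes were named from the platform annotation, and the gene identifiers of 34741 probe sets matched the GRCm38.p6 RefSeq table. Arrays of a sample were averaged, and the 22518 probe sets with a mean above the median of 2.72 entered a linear model (limma 3.58.1, R 4.3.3; lmFit, eBayes with trend, 2 residual degrees of freedom) with Benjamini-Hochberg adjustment at 0.05. An exact permutation test of 2 against 2 samples cannot go below a two-sided p of 0.333 and was not used. The procedure was tested on simulated data whose shifts were larger than any difference of the list. Recovery of differences as small as those of the list was not examined. Same-numbered samples deviated alike (correlation 0.55), which does not show that they were paired.

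Members, lists and tests were chosen with earlier results of these data known. Array values are given for the 2 tested genes of each class with the lowest p, for its gene with the highest mean signal, and for genes whose arrays separate the genotypes. Other probe sets of such a gene are given where the sign is opposite or the difference departs by over 1 log2 unit, and further ones were named after their values were seen. In each partner list the 2 genes with the lowest p are named. Alternatives covered the variance model, the unit of replication, the sample number, the filter, normalization, a floor, the probe set of a gene, a Gapdh covariate and omission of each sample and array.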

Additional observations from a re-analysis of the deposited data

Results flagged for a closer look

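Among 58 groups of 4 arrays (29 genes in 2 genotypes), 2 held 1 array far from the other 3 by Dixon's criterion, which chance does in about 1 of 20 groups. Ddx41 read 7.28 on array 1 of Crebbp+/- sample 2, while the other Crebbp+/- arrays lay between 7.36 and 7.37. Ezh2 read 10.68 on array 1 of wild-type sample 2, while the other wild-type arrays lay between 10.35 and 10.38. Arrays of a sample are repeat measurements, so these are not 4 independent values.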

How the results depend on the processing

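Across 25 alternatives none of the 29 genes (28 with the stricter filter) passed the limma test (lowest adjusted p = 0.183, for Bcor with a replicate block). Taking the 8 arrays as independent called 1 probe set of the whole table, and 2 genes of the list (Bcor, Smc3) had an unadjusted p under 0.05, beside 10.9% of all probe sets. With the replicate block, made from the sample number, 4 genes did (Dnmt3a, Idh1, Suz12, Bcor), beside 16.3%, and with the Gapdh covariate, which leaves 1 residual degree of freedom, 5 did (Tet2, Kmt2a, Rad21, Ptpn11, Etv6), beside 13%. The cause of these shifts was not tested, and the replicate block changed no call. The median difference of 0.10 ranged from 0.02 without wild-type sample 2 to 0.16 without wild-type sample 1, and was 0.04 after quantile normalization. A lone sample is assumed there to vary like the others. Class medians kept a positive sign for cohesin (0.09 to 0.31) and RAS signalling (0.05 to 0.30), while those of the other 4 classes took both signs. Of 724 single-gene values under the alternatives 70 turned sign, and 9 genes kept theirs throughout. Alternatives that change only the variance model, the unit of replication, the block or the filter leave a difference as it is and cannot turn it. Signs turned for 7 of 29 genes with the Gapdh covariate and for 8 with the mean of probe sets. They turned for 6 with the most variable probe set, and for 6 or 7 with 1 sample omitted. The number of genes with the same sign in both sample numbers was 20 after quantile normalization, against 18.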
